A study of Mus musculus with 27 samples.

Results

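Mouse neural stem cell (NSC) lines that had been immortalized in culture were compared by their labelled p53 genotype. By the labels, 6 lines (lines 3, 28, 31, 59, 95 and 116) were p53 mutant and 4 lines (119, 120, 123 and 331) were wild type (WT). These 10 lines were all the immortalized lines profiled in culture, out of 27 samples in the series, and arrays of normal NSCs and of tissue were left out of the comparison. Each line was measured once, on 1 Affymetrix array, from total RNA. The labels give the SCID mouse strain CB17/ICR-Prkdcscid/IcrCrl as the host background of all 10 lines, name no p53 allele and do not say how the lines were immortalized. They call the lines biological replicates without saying that each came from a separate animal or culture, so p-values here reflect only how far these lines spread, which may be technical in part.

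The tumor suppressor p53 is a transcription factor that is activated by DNA damage and other stress and that switches on genes of cell cycle arrest, apoptosis and DNA repair. Among its targets is Mdm2, the ubiquitin ligase that marks p53 for destruction, and the Cdkn2a locus encodes ARF, which holds Mdm2 back. Cultured mouse cells that escape senescence often have lost p53 itself or the Cdkn2a locus. In the neural stem cells of the adult brain p53 is known to restrain self-renewal and growth.

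The values were log2 expression levels, and 19165 autosomal genes were compared, each by 1 probe set. The 2 groups looked alike as a whole. The median level of a line lay between 7.02 and 7.08, and the median difference over all autosomal genes was 0.00 on the log2 scale, p53 mutant minus WT. Pearson's r across all genes was 0.964 to 0.986 between pairs of p53 mutant lines, 0.952 to 0.983 between a p53 mutant and a WT line, and 0.960 to 0.978 between pairs of WT lines. Genotype did not separate the lines along the first principal component, which held 26.7% of the variance. WT lines 331 (42.3) and 119 (28.4) stood at its far end, while the p53 mutant lines ran between -27.1 and 12.8 and WT lines 120 (4.35) and 123 (-7.31) lay among them. Trp53, which encodes p53, and Cdkn1a, its classic arrest target, were not analysed here, so the labels could not be checked on the mutated gene.

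Neural stem cell markers were unevenly present. Vim, an intermediate filament protein, averaged 12.99 ± 0.08 in p53 mutant lines and 12.97 in WT lines, and Sox9, a transcription factor of glial progenitors, averaged 8.12 ± 0.15 and 8.28. Prom1, a membrane protein used to sort neural stem cells, lay below the 25th percentile of all genes (6.20) in both groups, at 5.46 and 5.48. Fabp7, also on the neural stem cell list, was 9.40 in p53 mutant line 116. In all other lines it lay below that percentile, between 5.68 and 6.14. Of 6 astrocyte markers, Aqp4 and Aldh1l1 were below that percentile in both groups, while Slc1a3, a glutamate transporter, averaged 8.18 in p53 mutant lines and 8.79 in WT lines. Of 6 macrophage markers, Aif1, Itgam, Ptprc and Adgre1 were below it, Csf1r lay close above it (6.21 and 6.28) and the lysosomal protein Cd68 averaged 8.20 and 8.29. Of 5 endothelial markers, Kdr, Tek and Emcn were below it. Of 7 mural markers, Des was below it and Rgs5 averaged 6.37 and 6.53. Acta2 averaged 12.83 in p53 mutant lines and 12.56 in WT lines, near the level of Vim. Pdgfrb averaged 9.62 and 9.88, and Tagln 9.27 and 9.95. The mean level of the macrophage list ran between 6.08 and 6.22 in p53 mutant lines and between 6.06 and 6.28 in WT lines, that of the astrocyte list had medians of 6.62 and 6.68, and that of the endothelial list ran between 5.75 and 5.87 and between 5.85 and 5.98. The mean level of 7 fibroblast markers ran between 7.70 and 8.30 in p53 mutant lines (median 7.81), against 8.02 to 9.55 in WT lines (median 9.24). In WT lines 119, 120 and 331 this mean was above that of every p53 mutant line, while WT line 123 lay inside the range of the p53 mutant lines. The part of this marker level in the gene differences was not tested. In RNA from whole cultures, fewer cells of a type and less RNA per cell cannot be told apart.

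Between p53 mutant and WT lines, 4 autosomal genes passed the test. Prkar2b rose in the p53 mutant lines, and Thbd, Cpa6 and Sema3d fell. Prkar2b encodes a regulatory subunit of protein kinase A, which holds the catalytic subunits inactive until cyclic AMP binds. Thbd is thrombomodulin, a surface receptor for thrombin, Cpa6 a secreted carboxypeptidase of the extracellular matrix, and Sema3d a secreted semaphorin that guides axons and migrating cells. The 4 genes were 0.0209% of those tested by limma at an adjusted p under 0.05 (Benjamini-Hochberg over all measured genes), with 1 gene higher (0.00522%) and 3 lower (0.0157%).

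Prkar2b had a lowest level of 10.10, a median of 10.54 and a highest level of 10.66 in p53 mutant lines, against 8.98, 9.54, 9.23 and 9.27 in WT lines 119, 120, 123 and 331. The groups did not overlap, and line 116 was the lowest of the p53 mutant lines. Its mean was 10.49 ± 0.21 in p53 mutant lines (SD, n = 6) and 9.26 ± 0.23 in WT lines (SD, n = 4), a log2 difference of 1.23 ± 0.13 SE (limma adjusted p = 0.0165). Thbd ran between 6.10 and 6.38 with a median of 6.21 in p53 mutant lines, against 7.28, 6.99, 6.93 and 7.20 in the WT lines in the same order. All p53 mutant lines were below all WT lines, and Thbd fell by 0.87 ± 0.09 SE on the log2 scale (limma adjusted p = 0.0165). Its mean in the p53 mutant lines, 6.22, lay just above the 25th percentile of all genes.

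Cpa6 ran between 5.02 and 5.71 with a median of 5.25 in p53 mutant lines, against 6.92, 6.40, 6.37 and 6.59 in WT lines 119, 120, 123 and 331. The groups were apart, and Cpa6 fell by 1.27 ± 0.15 SE (limma adjusted p = 0.023). Sema3d ran between 5.05 and 5.95 with a median of 5.64 in p53 mutant lines, against 8.36, 7.77, 8.05 and 10.01 in the WT lines. All WT lines were higher, line 331 by the widest margin, and Sema3d fell by 2.96 ± 0.37 SE (limma adjusted p = 0.0368). The mean levels of Cpa6 (5.30) and Sema3d (5.59) in the p53 mutant lines lay below the 25th percentile of all genes. Nothing in the values shows whether such levels exceed background. If they do not, both differences are lower bounds.

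With 1 line left out at a time, the 4 differences kept their direction, and Prkar2b ranged between 1.14 and 1.33, Thbd between -0.93 and -0.81, Cpa6 between -1.36 and -1.16 and Sema3d between -3.22 and -2.47. Their calls did not all hold: limma called 0 genes without line 3, 28, 31 or 119 (1197 to 1390 had an unadjusted p under 0.05), 1 without line 59, 2 without line 95 or 331, 7 without line 116 or 120 and 10 without line 123. The highest adjusted p among these fits was 0.0785 for Prkar2b and Thbd, 0.103 for Cpa6 and 0.146 for Sema3d.

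**Figure D1:**
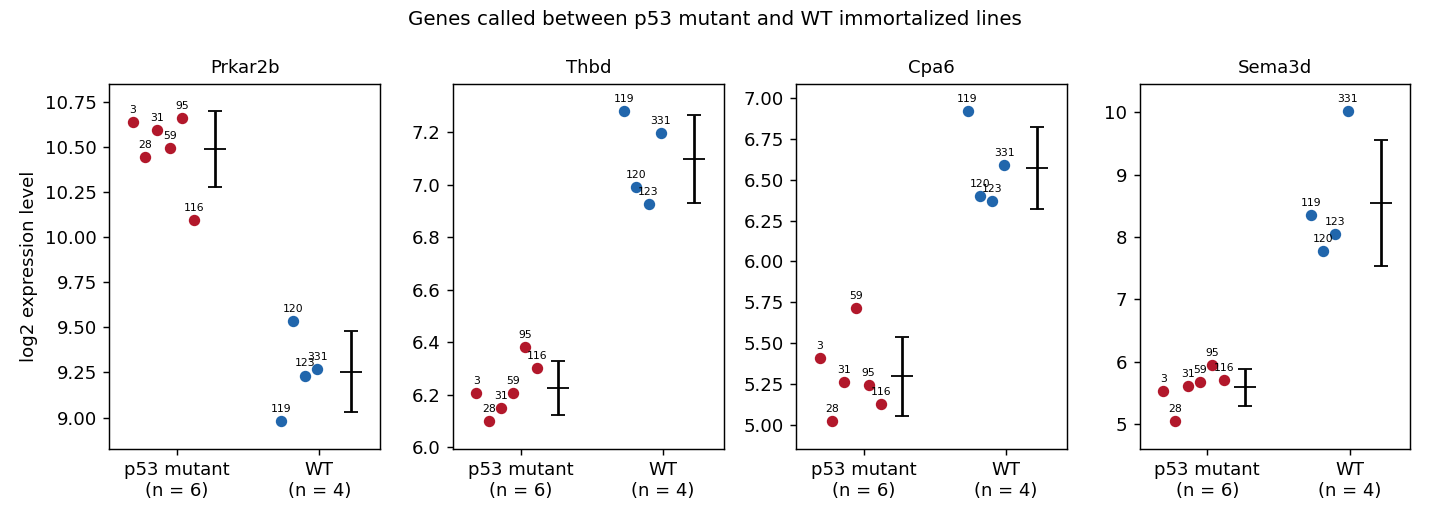
Log2 expression level (vertical axis, a separate range for each gene) of the 4 called genes in each line, with p53 mutant lines (n = 6) left of WT lines (n = 4). Points are lines with their numbers, and the bar beside each group is the mean with its SD. In each panel the groups do not overlap, and Prkar2b is the gene that is higher in the p53 mutant lines.

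Promoter sequence from RefSeq (assembly GRCm38.p6) is shown for Prkar2b and Sema3d, the called genes with an entry, and for Ccng1, a known p53 target, to show what a p53 match looks like. Each is the 250 bases before the annotated start, 5′ to 3′ on the gene's strand. The window of Prkar2b is chr12:32061278-32061527 (minus strand, the more upstream of 2 entries), that of Sema3d chr5:12382916-12383165 (plus strand) and that of Ccng1 chr11:40755287-40755536 (minus strand). Capitals mark a match.
Prkar2b: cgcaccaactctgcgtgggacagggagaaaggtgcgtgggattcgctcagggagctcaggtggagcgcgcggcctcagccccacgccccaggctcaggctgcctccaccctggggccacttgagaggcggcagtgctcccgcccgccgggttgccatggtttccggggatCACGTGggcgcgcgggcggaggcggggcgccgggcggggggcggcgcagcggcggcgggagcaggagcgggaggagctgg
Sema3d: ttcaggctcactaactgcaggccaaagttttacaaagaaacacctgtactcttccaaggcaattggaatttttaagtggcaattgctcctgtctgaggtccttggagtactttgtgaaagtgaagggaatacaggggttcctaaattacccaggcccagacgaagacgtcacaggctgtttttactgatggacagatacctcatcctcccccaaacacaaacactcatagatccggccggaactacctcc
Ccng1: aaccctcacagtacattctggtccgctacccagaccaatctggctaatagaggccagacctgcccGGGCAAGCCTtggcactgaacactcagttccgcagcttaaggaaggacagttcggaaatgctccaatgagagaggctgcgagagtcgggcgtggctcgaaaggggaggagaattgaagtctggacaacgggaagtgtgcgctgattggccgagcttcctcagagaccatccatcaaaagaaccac
The motifs searched on both strands were the p53 decamer consensus, the E-box CACGTG, the cyclic AMP response element TGACGTCA and the AP-1 site TGANTCA. Prkar2b held the E-box, 80 to 75 bases before its start, and Ccng1 held the p53 decamer as GGGCAAGCCT, 185 to 176 bases before its start. No match overlapped another, and the Sema3d window held none of these letters. Of 32851 windows of this length, 7.13% held the p53 decamer, 6.02% the E-box, 1.55% the cyclic AMP response element and 6.75% the AP-1 site.

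Over all autosomal genes, 1554 (8.11%) had an unadjusted p under 0.05, 690 of them higher (3.6%) and 864 lower (4.51%) in the p53 mutant lines. Both shares were larger among the 9582 genes above the median level, at 5.37% and 6.03%. For lists of well-expressed genes, 8.11% is therefore a low share to compare with. The groups did not overlap in 308 genes (1.61%), 130 higher (0.678%) and 178 lower (0.929%). Where a difference of at least 2-fold was also required, 36 genes were left (0.188%), and 35 of these were lower in the p53 mutant lines (0.183%), with Prkar2b as the 1 that was higher.

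Other members of the protein families of the called genes were looked up after the calls were known. Each family was chosen for its called gene, so a count of at least 1 was fixed in advance. Such counts cannot be read as an excess over the 0.0209% of all genes. Of 8 measured genes of protein kinase A subunits and inhibitors, 1 was called, Prkar2b. Prkacb, a catalytic subunit, ran between 9.82 and 10.01 in p53 mutant lines and between 9.34 and 9.81 in WT lines, apart but not called (difference 0.31, limma adjusted p = 0.419). The other regulatory subunits averaged 9.99 and 10.03 (Prkar1a), 7.88 and 8.52 (Prkar1b) and 9.32 and 9.32 (Prkar2a) in p53 mutant and WT lines, and their groups overlapped.

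Of 13 class 3 semaphorins and receptors, 1 was called, Sema3d. Sema3c, another secreted member, averaged 8.48 ± 1.41 in p53 mutant lines and 10.16 ± 1.38 in WT lines, with overlapping groups (unadjusted p = 0.054). The coreceptor Nrp1 averaged 9.49 and 9.59. Among 9 genes of coagulation, its inhibition and fibrinolysis, 3 were higher and 6 lower by sign. Tfpi, an inhibitor of the tissue factor pathway, ran between 5.89 and 7.94 in p53 mutant lines, against 8.22 to 9.78 in WT lines. The groups were apart, with a difference of -2.27 ± 0.48 SE that was not called (limma adjusted p = 0.359).

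Genes of prostaglandin synthesis, transport and response, none of them a called gene, were also listed after the calls were known. Of 16 measured, 0 were called by limma. An unadjusted p under 0.05 was held by 3, Ptges among them (18.8%, against 8.11% of all genes). In a list drawn up this way, that share cannot be read as an excess. Ptges, the inducible prostaglandin E synthase, averaged 6.65 ± 0.24 in p53 mutant lines and 8.21 ± 0.77 in WT lines, with groups apart (difference -1.56 ± 0.29 SE, limma adjusted p = 0.292). Slco2a1, the prostaglandin transporter, averaged 7.46 ± 1.08 and 9.86 ± 0.85, with p53 mutant line 28 (9.43) inside the WT range. Ptgs2, the inducible cyclooxygenase, averaged 12.12 ± 0.62 in p53 mutant lines and 11.76 ± 0.40 in WT lines.

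By Pearson's r over the 10 lines, the levels most like those of Thbd were those of Sema3d (0.953), Cpa6 (0.952), Rnf144a (0.950), Ptges (0.936) and Ehd3 (0.923). Each of these genes was lower in every p53 mutant line than in every WT line, so the r values mostly repeat the difference between the groups.

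After the called genes, the smallest p-values among genes lower in the p53 mutant lines belonged to 7 genes that did not pass the test. Lgr4, the receptor through which R-spondins strengthen Wnt signals, ran between 7.29 and 8.03 with a median of 7.83 in p53 mutant lines, against 8.71, 9.16, 9.12 and 8.65 in WT lines 119, 120, 123 and 331. The groups were apart, with a difference of -1.14 ± 0.16 SE (limma adjusted p = 0.0741). Igf2bp1, a fetal RNA-binding protein that stabilizes growth-promoting mRNAs, ran between 6.22 and 6.96 with a median of 6.52, against 8.20, 7.43, 9.03 and 8.49 in WT lines (difference -1.77 ± 0.26 SE, adjusted p = 0.107). WT line 120 was nearest to the p53 mutant lines.

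Serpinb1a, an inhibitor of neutrophil proteases, ran between 6.32 and 8.02 with a median of 7.38 in p53 mutant lines, against 9.11, 10.08, 9.87 and 11.57 in WT lines (difference -2.99 ± 0.46 SE, limma adjusted p = 0.119). All p53 mutant lines were below all WT lines, and line 331 was the highest. Lgals9, the sugar-binding protein galectin-9, ran between 6.97 and 7.42, against 9.97, 7.89, 9.98 and 9.33 in WT lines (difference -2.04 ± 0.35 SE, adjusted p = 0.194). Ctsk, the lysosomal protease cathepsin K (-1.33 ± 0.20 SE), Rnf144a, a ubiquitin ligase (-0.87 ± 0.14) and Nek6, a mitotic kinase (-0.59 ± 0.10) were apart as well, with adjusted p between 0.119 and 0.194.

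After Prkar2b, the 9 smallest p-values among genes higher in the p53 mutant lines were larger than those of the lower genes above. Prmt6, an arginine methyltransferase, ran between 7.32 and 7.74 with a median of 7.58 in p53 mutant lines, against 6.95, 7.11, 7.08 and 7.09 in WT lines 119, 120, 123 and 331 (difference 0.50 ± 0.10 SE, limma adjusted p = 0.359). Its groups were apart. Mkx, a homeobox gene of tendon cells, had the largest difference of the 9 uncalled genes, 1.02 ± 0.23 SE, with p53 mutant line 116 (7.97) just under WT line 119 (7.99). Rpf1, a ribosome assembly factor (0.65 ± 0.14), also overlapped, through p53 mutant line 116 (8.98) and WT line 120 (9.05).

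The other 6 of these genes were apart. They were Ube2t, a ubiquitin-conjugating enzyme of DNA crosslink repair (0.48 ± 0.10 SE), Larp1b, an RNA-binding protein (0.51 ± 0.11), Ccp110, which caps centrioles (0.51 ± 0.11), Otud4, a deubiquitinase (0.60 ± 0.13), Mbnl1, a splicing regulator (0.42 ± 0.09), and Rnd1, a small GTPase that loosens cell adhesion (0.56 ± 0.12). Adjusted p for the 9 uncalled genes lay between 0.359 and 0.370 (limma).

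**Figure D2:**
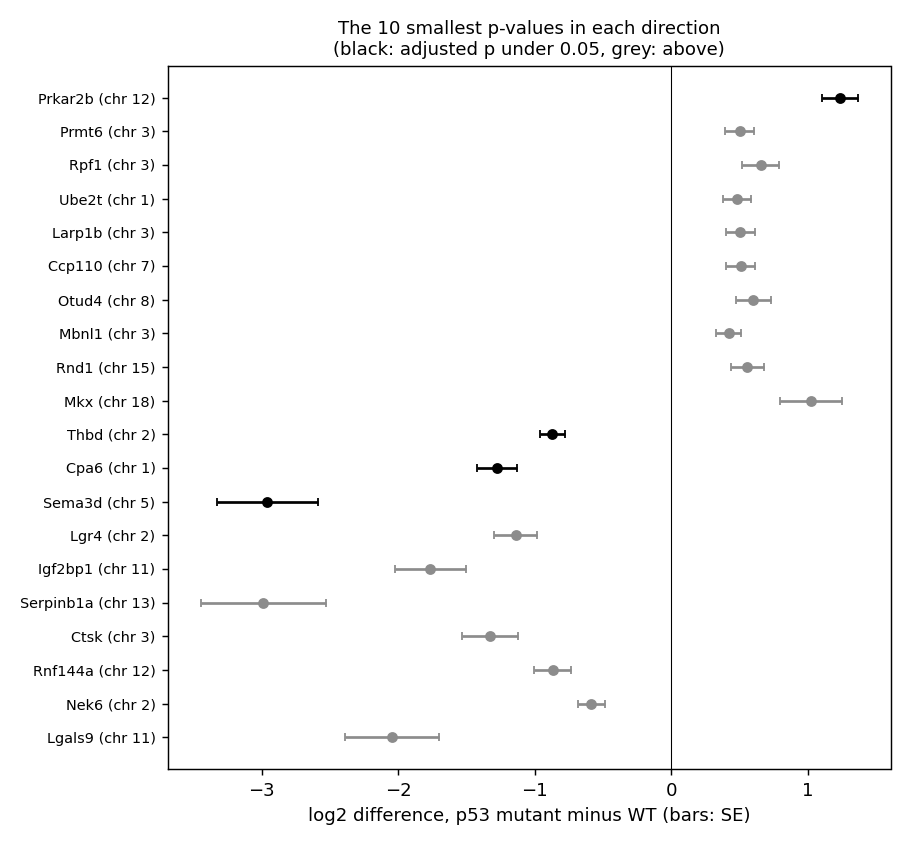
Log2 difference, p53 mutant minus WT, with its SE (horizontal axis) for the 10 genes with the smallest p in each direction, with their chromosomes. Black points passed the adjusted test (Prkar2b, Thbd, Cpa6 and Sema3d) and grey points did not. Sema3d and Serpinb1a lie farthest to the left, near -3, and 4 of the 10 genes on the right are on chromosome 3.

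Among p53 target genes, 0 of 51 measured members were called by limma, 25 were higher and 26 lower by sign, and their median difference was -0.01, against 0.00 for all genes. By unadjusted p under 0.05, 2 were higher and 9 lower (21.6% in all, against 8.11%). With 1 line left out, 5 to 8 were lower, with 5 without p53 mutant line 3 or 59 or WT line 119 or 331. The higher ones numbered 1 without WT line 119, 4 without p53 mutant line 59 or 116 and 5 without line 95. With arrays centred on their medians, 4 were higher and 5 lower, with a median difference of 0.02. With quantile normalization, 3 were higher and 5 lower, with a median of 0.03. The mean level of the list ran between 7.98 and 8.22 in p53 mutant lines and between 8.15 and 8.16 in WT lines. The p53 mutant lines thus lay on both sides of the WT lines.

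Mdm2 ran between 8.99 and 9.32 with a median of 9.13 in p53 mutant lines, against 8.88, 9.22, 9.32 and 8.86 in WT lines 119, 120, 123 and 331. The groups overlapped along nearly their whole range (difference 0.07 ± 0.11 SE, limma adjusted p = 0.913). Ccng1, cyclin G1, averaged 11.15 ± 0.22 in p53 mutant lines and 11.50 ± 0.21 in WT lines (difference -0.34 ± 0.13 SE, adjusted p = 0.516). Zmat3, an RNA-binding p53 target on chromosome 3, averaged 8.43 ± 0.16 and 7.92 ± 0.36 (difference 0.52 ± 0.15 SE, adjusted p = 0.412), with an overlap through WT line 120 (8.26).

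The other p53 targets looked up by name were not called either. Perp, a desmosome protein linked to apoptosis, averaged 7.68 ± 1.04 in p53 mutant lines and 8.25 ± 0.53 in WT lines, with lines 3 (6.54) and 95 (6.19) far below the other p53 mutant lines. Differences were 0.38 ± 0.19 SE for Ephx1, an epoxide hydrolase, -0.42 ± 0.21 for Trp53inp1, which promotes p53-driven death, -0.18 ± 0.12 for Phlda3, an inhibitor of Akt, and -0.10 ± 0.19 for Sesn2, a stress-induced inhibitor of growth signals. Steap3, an iron reductase, had an unadjusted p under 0.05, with 6.89 ± 0.18 in p53 mutant lines and 7.71 ± 0.82 in WT lines.

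Of 27 regulators and partners of p53, 0 were called by limma. By unadjusted p 3 were lower (11.1%, against 8.11% of all genes, and 5.37% higher and 6.03% lower above the median level). That count was 0 without line 59 and 1 without line 3, 28, 31, 119, 120 or 123. With quantile normalization 0 were lower and 1 higher, and with arrays centred on their medians 1 was lower and 1 higher. Cdkn2a, which encodes both the kinase inhibitor p16 and ARF, ran between 6.89 and 7.61 with a median of 7.48 in p53 mutant lines, against 7.81, 7.81, 7.93 and 7.40 in WT lines 119, 120, 123 and 331. Only WT line 331 lay inside the range of the p53 mutant lines (difference -0.35 ± 0.15 SE, limma adjusted p = 0.568). Its neighbour Cdkn2b, a kinase inhibitor induced by TGF-beta, averaged 8.39 ± 0.64 and 9.15 ± 0.25 (difference -0.75 ± 0.30 SE, adjusted p = 0.519).

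Cell cycle genes leaned higher in the p53 mutant lines without passing the test. Of 28 DNA replication genes, 27 were higher by sign with a median difference of 0.21. Among all genes above the median level, 5.37% were higher and 6.03% lower by unadjusted p. By limma 0 of the 28 were called, and 3 had an unadjusted p under 0.05 (10.7%, against 8.11% of all genes), all higher. These were Mcm3 of the replicative helicase (0.54 ± 0.17 SE), Cdt1, which loads it (0.28 ± 0.09), and Ung, which removes uracil (0.23 ± 0.10). The mean level of the list was 9.61, 9.60, 9.66, 9.57, 9.52 and 9.07 in p53 mutant lines 3, 28, 31, 59, 95 and 116, against 9.30, 9.18, 9.42 and 9.33 in the WT lines. Line 116 was below all WT lines and the other 5 were above them. Without line 116, 12 of the 28 had an unadjusted p under 0.05, without line 123 6 and without line 95 5, and 2 to 4 without any other line.

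Of 29 genes of mitosis and the spindle, 24 were higher by sign with a median of 0.12. By limma 0 were called, and 6 had an unadjusted p under 0.05 (20.7%, against 8.11% of all genes). Mki67, the proliferation antigen Ki-67, ran between 10.32 and 11.45 with a median of 10.91 in p53 mutant lines, against 10.54, 10.28, 10.18 and 10.30 in WT lines. Line 116 was the 1 p53 mutant line inside the WT range (difference 0.57 ± 0.18 SE, limma adjusted p = 0.419). Without line 123, 10 members of the list were higher by unadjusted p, 8 without line 116, 4 without line 31, 59, 119 or 120 and 3 without line 331. The median ran between 0.09 without line 59 and 0.22 without line 123. Of the 6, Ccna2, cyclin A (0.48 ± 0.17), Cenpe, a kinetochore motor (0.46 ± 0.16), and Ect2, which drives cytokinesis (0.60 ± 0.25), lie on chromosome 3. Ccnd1, cyclin D1, averaged 11.26 ± 0.80 and 11.15 ± 1.07, and Ccnd2, cyclin D2, averaged 9.89 ± 0.81 in p53 mutant lines and 10.97 ± 0.80 in WT lines.

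Neural stem and progenitor genes had a median difference of 0.08 over 21 members, with 0 called by limma. By unadjusted p 3 passed, all higher (14.3%, against 8.11% of all genes). That count was 1 without line 3, 31, 95 or 119 and 0 without line 331, where the median was -0.035 and 1 member was lower. The median was 0.03 without line 3 and 0.04 without line 59 or 95, and 0.13 without line 120. Sox2, a transcription factor of stem cells, ran between 8.36 and 9.01 with a median of 8.67 in p53 mutant lines, against 8.52, 8.50, 7.28 and 7.16 in WT lines 119, 120, 123 and 331 (difference 0.83 ± 0.28 SE, limma adjusted p = 0.442). WT lines 119 and 120 lay inside the range of the p53 mutant lines, and 123 and 331 lay below it. Nes, the intermediate filament nestin, ran between 7.96 and 10.39 with a median of 9.73, against 8.24, 9.17, 8.11 and 8.20 in WT lines (difference 1.01 ± 0.43 SE, adjusted p = 0.557). Line 116 was the lowest of all 10 lines. Both genes lie on chromosome 3. The glial genes Olig2 (6.21 and 6.17) and Gfap (6.37 and 6.33) were near the 25th percentile in both groups.

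Matrix and fibroblast genes leaned lower in the p53 mutant lines, and 0 were called by limma. Of 27 matrix proteins and proteases, 19 were lower by sign and the median difference was -0.34. By unadjusted p 9 were lower and 1 higher (37% in all, against 8.11% of all genes). Thbs2, a matrix glycoprotein that restrains vessel growth, ran between 6.42 and 8.04 with a median of 7.22 in p53 mutant lines, against 11.45, 8.32, 8.14 and 10.47 in WT lines 119, 120, 123 and 331 (difference -2.38 ± 0.62 SE, limma adjusted p = 0.396). The groups were apart, narrowly so for WT lines 120 and 123. Mmp2, a gelatinase, ran between 7.47 and 10.13 with a median of 8.17, against 12.16, 10.14, 8.32 and 11.68 in WT lines (difference -2.27 ± 0.73 SE, adjusted p = 0.430). Lines 119 and 331 were again the highest of the WT lines.

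Of 18 fibroblast genes, 15 were lower by sign, with a median difference of -0.73. By unadjusted p 5 were lower and 1 higher (33.3% in all, against 8.11% of all genes). Fbln2, a fibulin of elastic fibers, ran between 8.65 and 10.05 in p53 mutant lines, against 10.76, 10.29, 10.38 and 11.01 in WT lines (difference -1.35 ± 0.28 SE, limma adjusted p = 0.359). Its groups were apart. Dcn, the small proteoglycan decorin, ran between 5.64 and 9.01, against 11.67, 9.32, 6.60 and 10.58, with WT line 123 among the p53 mutant lines. Cd34, a surface sialomucin of progenitor and stromal cells, went the other way, with 10.59 ± 0.94 in p53 mutant lines and 9.01 ± 0.64 in WT lines (difference 1.57 ± 0.47 SE, adjusted p = 0.412). Without WT line 119, the matrix list had 5 members lower by unadjusted p and a median of -0.11, and the fibroblast list 4 and -0.46. Without WT line 331 these were 5 and -0.16, and 4 and -0.61. The matrix list also had 5 lower without p53 mutant line 3 and medians of -0.17 without line 31 or 120 and -0.14 without line 95. The level of fibroblast markers given above moved with both lists. Since Dcn, described here, is also among those markers, moving together is partly built in. The part of the marker level in these differences was not tested.

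Growth factor genes gave no called member. Pdgfra, the receptor of platelet-derived growth factors, ran between 6.39 and 11.41 with a median of 8.57 in p53 mutant lines, against 11.65, 8.92, 8.21 and 11.37 in WT lines. Its spread within each group was larger than the distance between the means (difference -1.55 ± 0.97 SE, limma adjusted p = 0.721). Egfr, the receptor of epidermal growth factor, averaged 9.37 ± 0.92 and 9.47 ± 0.35, and the hepatocyte growth factor receptor Met 10.55 ± 0.40 and 10.63 ± 0.58.

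Of 15 genes of insulin-like growth factors and their binding proteins, 5 were lower and 1 higher by unadjusted p (40% in all, against 8.11% of all genes). Their median difference was -0.44. Without WT line 119 the median was 0.05 and 2 were lower, and 2 were lower without line 28, 31, 59 or 331, where medians ran between -0.67 and -0.30. Of 19 imprinted genes, 16 were lower by sign and 5 by unadjusted p (26.3%, against 8.11% of all genes), with a median of -0.51. Without line 119 this was 2 and -0.19, without line 28 2 and -0.34, without line 31 3 and -0.33, without line 123 3 and -0.31 and without line 116 4 and -0.32. Mest averaged 7.39 ± 1.05 in p53 mutant lines and 9.52 ± 2.08 in WT lines. The noncoding RNA Meg3 averaged 6.68 ± 0.13 and 7.96 ± 1.35, with WT line 119 (6.63) among the p53 mutant lines and line 331 (9.83) the highest.

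Of 29 genes of TGF-beta and BMP signalling, 0 were called by limma and the median difference was -0.13. By unadjusted p 6 were lower (20.7%, against 8.11% of all genes). They included the ligands Bmp4 (8.35 ± 0.98 in p53 mutant and 9.50 ± 0.70 in WT lines) and Tgfb3 (8.05 ± 0.52 and 8.65 ± 0.18) and the target Id3 (8.05 ± 0.79 and 9.06 ± 0.56). Without WT line 119, 1 member was lower by unadjusted p and the median was -0.01, without line 95 or 120 3 were lower, with medians of -0.19 and -0.12, and without line 116 the median was -0.03. Without line 59 the median was -0.08. Of 29 Wnt pathway genes, 6 were lower by unadjusted p (20.7%, against 8.11% of all genes). Among them were the receptors Fzd2 (-0.52 ± 0.16 SE), Lrp5 (-0.34 ± 0.12) and Lrp6 (-0.34 ± 0.12) and the ligand Wnt5a (-0.97 ± 0.37). The median of this list was -0.06, and -0.09 without line 31 and -0.15 without line 331. Lgr4, described above, was not a member of it.

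**Figure D3:**
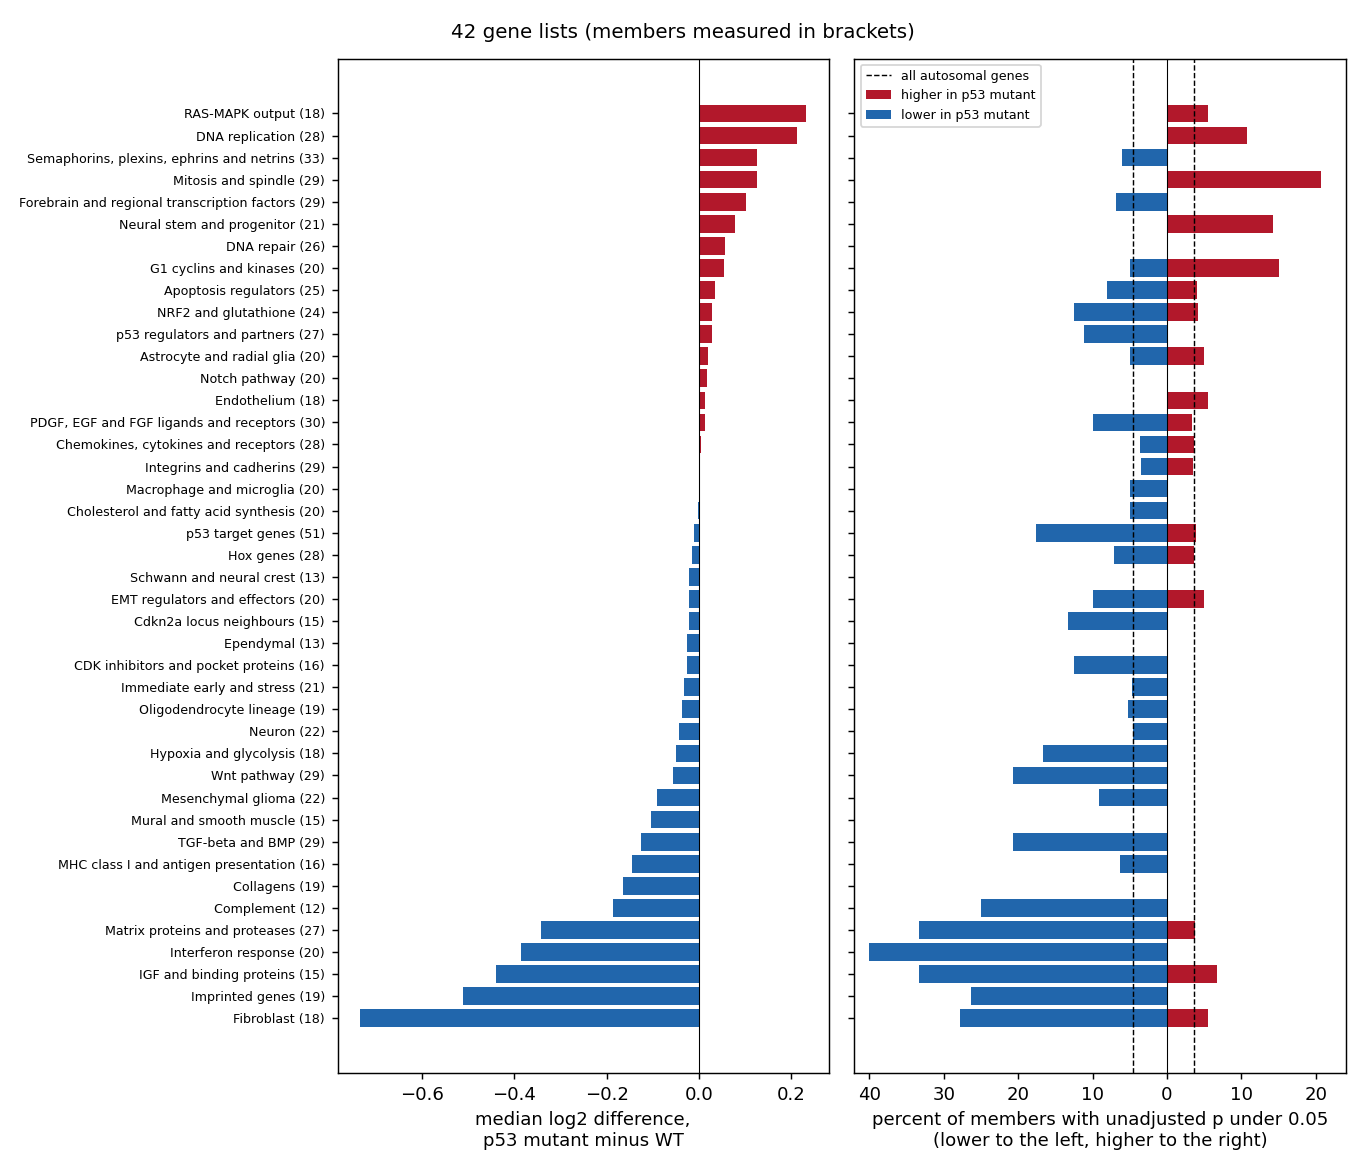
Left, median log2 difference, p53 mutant minus WT, of each of the 42 gene lists, with the number of measured members in brackets. Right, percent of members with an unadjusted p under 0.05, lower in p53 mutant lines to the left and higher to the right, with dashed lines for all autosomal genes (4.51% lower, 3.6% higher). The bars run between -0.73 for the fibroblast list and 0.23 for RAS-MAPK output, and the RAS-MAPK median was 0.06 without line 95. Only Sema3d was called among all members.

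Interferon response genes were lower by sign in 18 of 20 measured members, with a median difference of -0.39. By unadjusted p 8 were lower (40%, against 8.11% of all genes), and 0 were called by limma. Ifit1, an antiviral protein that binds foreign RNA, ran between 5.83 and 6.12 in p53 mutant lines, against 7.37, 6.35, 6.42 and 7.80 in WT lines 119, 120, 123 and 331. The groups were apart (difference -1.03 ± 0.25 SE, adjusted p = 0.383), with the p53 mutant mean below the 25th percentile. Oasl2, of the oligoadenylate synthetase family, ran between 6.43 and 6.88, against 9.25, 6.75, 6.76 and 9.37. Lines 119 and 331 were high and the other WT lines lay inside the range of the p53 mutant lines. Without either line 119 or line 331, 4 members were lower by unadjusted p, with medians of -0.23 and -0.19.

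Of 12 measured complement genes, 6 had a mean level under the 25th percentile, where values may be background. All 12 were lower by sign, with a median of -0.19, and 3 by unadjusted p (25%, against 8.11% of all genes). Without line 116 this was -0.30 and 5, without line 331 -0.21 and 5 and without line 123 -0.11 and 4. C1s1, a protease of the first complement component, averaged 5.12 ± 0.69 in p53 mutant lines and 7.51 ± 1.93 in WT lines, with WT line 123 (5.24) inside the p53 mutant range. Its p53 mutant mean was under the 25th percentile. Among 18 genes of hypoxia and glycolysis, 9 were higher and 9 lower by sign. By unadjusted p 3 were lower (16.7%, against 8.11% of all genes), and 5 without line 123. Adm, the vasodilator adrenomedullin, was apart, between 6.69 and 6.99 in p53 mutant lines and between 7.35 and 9.02 in WT lines (difference -1.19 ± 0.28 SE, limma adjusted p = 0.383). In the glutathione list, Gclm, which limits glutathione synthesis, was apart and higher (0.56 ± 0.14 SE, adjusted p = 0.383), and Keap1, which marks Nrf2 for destruction, was apart and lower (-0.33 ± 0.08 SE, adjusted p = 0.396). Gclm lies on chromosome 3 and Keap1 on chromosome 9.

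The gene differences were uneven along the genome. Chromosomes 3 and 9 were singled out after the values of all 19 autosomes had been seen, and what follows is a description, since neighbouring genes are not independent. Among genes above the median level, 36.4% of 497 genes on chromosome 3 were higher in p53 mutant lines by unadjusted p, against 5.37% of all 9582 such genes, and 1.61% were lower, against 6.03%. By sign 84.3% were higher, and the median difference was 0.25. The median deviation of these genes from their 10-line mean was 0.23, 0.13, 0.13, 0.10, 0.02 and -0.04 in p53 mutant lines 3, 28, 31, 59, 95 and 116, against -0.15, -0.04, -0.28 and -0.10 in WT lines 119, 120, 123 and 331. The groups were apart narrowly, between p53 mutant line 116 and WT line 120, and lines 3 and 123 stood at the ends. Over chromosome 3 genes of any level the groups overlapped, with line 116 (-0.039) below WT line 120 (-0.011).

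Chromosome 9 leaned the other way. Of its 555 genes above the median level, 20.9% were lower by unadjusted p and 0.721% higher, and the median difference was -0.14. Median deviations ran between -0.13 and 0.06 in p53 mutant lines and between 0.06 and 0.11 in WT lines, with p53 mutant line 31 above WT line 119. Chromosomes 14 (15.2%) and 6 (12.3%) followed in the share of lower genes. Over genes of any level, 21.6% were higher on chromosome 3 and 12.4% lower on chromosome 9. DNA copy number was not analysed here.

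**Figure D4:**
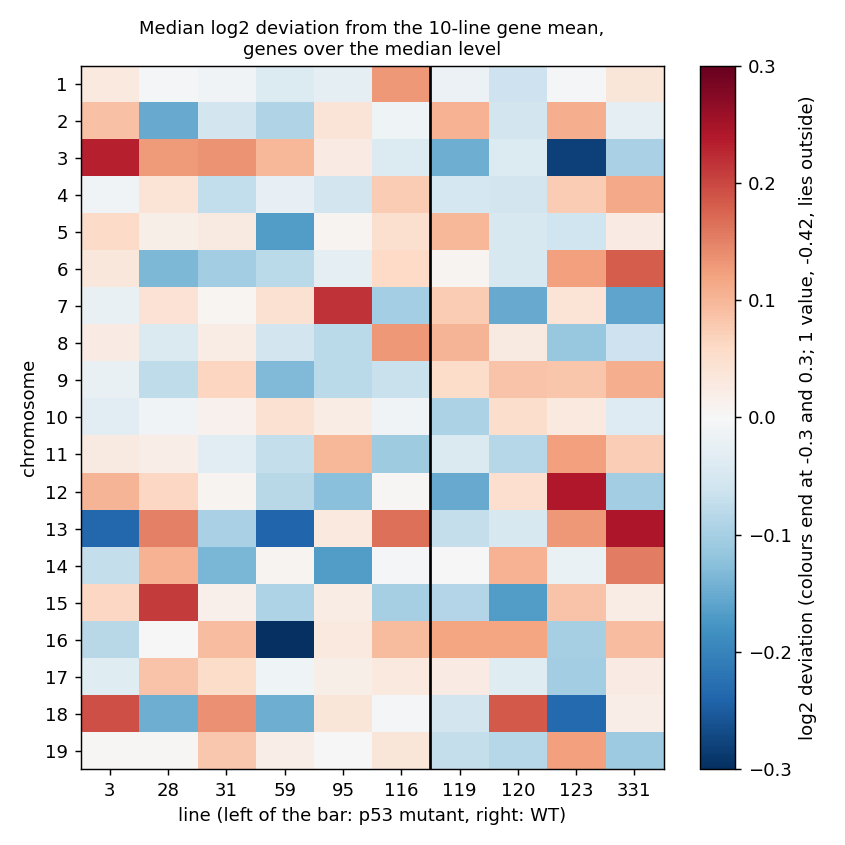
Median log2 deviation of the genes of each autosome (vertical axis) from their mean over the 10 lines, for genes above the median level, in each line (horizontal axis, p53 mutant lines left of the black bar and WT lines right of it). Red is above and blue below the mean. Chromosome 3 is red or near white in the p53 mutant lines and blue or pale blue in the WT lines, while single lines stand out on other chromosomes, such as line 59 on chromosome 16.

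Along chromosome 3, cut into 10 parts of equal gene number, the median difference was positive in every part, between 0.13 and 0.34. It was highest in the last part (0.34, 32 of 50 genes higher by unadjusted p) and lowest in the 2 middle parts. Along chromosome 9 it was negative in every part, between -0.23 and -0.03. Without line 123, 21.5% of the chromosome 3 genes were higher by unadjusted p, and without line 116 44.5% were. In the fit without line 116, limma called 4 of them, the mitochondrial ribosome protein gene Mrpl47, Rpf1, the chaperone gene Hspa4l and Spata5. Leaving chromosome 3 out of the count, without a new fit, kept the number of called genes at 4. That was fixed in advance, since none of the called genes lies on it.

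Several genes named above lie on chromosome 3. With each line's values centred per chromosome, the difference was 0.43 for Prmt6, 0.58 for Rpf1, 0.43 for Larp1b, 0.35 for Mbnl1, 0.45 for Zmat3, 0.76 for Sox2 and 0.94 for Nes. Centring takes the same amount off the difference of every gene on a chromosome. The centre was the median over genes of any level. On chromosome 3 the median difference of such genes was 0.10, against 0.25 for genes above the median level. The larger shift of the latter was thus not fully taken out. That each value was smaller than the uncentred one was thus fixed in advance, and each kept its sign. The called genes lie on chromosomes 12, 2, 1 and 5.

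**Figure D5:**
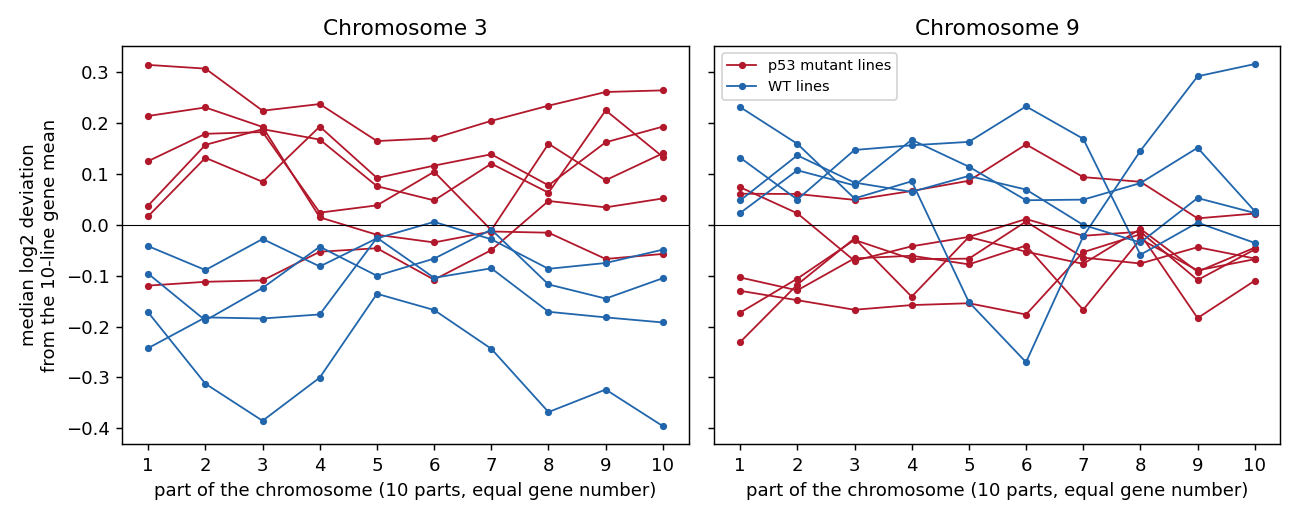
Median log2 deviation from the 10-line gene mean (vertical axis) in 10 parts of chromosomes 3 and 9 (horizontal axis, parts in chromosomal order), with 1 curve per line, p53 mutant lines in red and WT lines in blue. On chromosome 3 the WT curves lie below 0 in nearly every part and those of p53 mutant lines 3, 28, 31 and 59 lie mostly above it, while line 95 is above it in the first 4 parts and line 116 in the last 3. On chromosome 9 most p53 mutant curves lie below most WT curves, with more crossing.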

How the data were processed

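RNA of 10 immortalized mouse NSC lines was measured on Affymetrix arrays, 1 per line, with 100 ng of total RNA per labelling, per the labels' protocols. The deposited values were log2 expression levels per probe set, made with RMA, per the submitters' processing notes, which also name GCOS and Affymetrix Expression Console without version or order. They were used as deposited. For the probe annotation, a genome build is not given in the sources used here. Arrays give no read depth, and their number limits the precision.

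Of 34760 probe sets, 21640 listed with 1 gene were kept, 1321 with several genes and 11799 without one were left out, and for 954 genes the probe set with the highest mean over the 27 arrays was taken. This gave 19937 genes, 19165 of them autosomal. Chromosomes and gene order came from RefSeq (GRCm38.p6).

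Groups were taken from the labelled genotype and compared with limma 3.58.1 in R 4.3.3 (linear model, empirical Bayes, 2-sided), with Benjamini-Hochberg adjustment over all 19937 genes and calls at an adjusted p under 0.05. In simulated data with 6 against 4 lines and 100 genes per size, 91% of log2 changes of 1 and 97% of changes of 2 were called, with 9 false calls among 197. Noise was drawn independently for each gene, and 197 calls allow a looser p cut than the 4 calls in the data. These shares therefore do not give the sensitivity of the comparison itself. Lists (42, with 876 of 948 entries measured) were described by counts and medians, without a test. Other steps ran in Python 3.11.15 (pandas 2.3.3, numpy 2.4.6, and for figures matplotlib 3.10.9).

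The text names the 10 genes with the smallest p in each direction, 20 genes picked by name and the 5 genes most like the one with the smallest p. List members and family members beyond these were named after their values were seen. The comparison, the lists and these rules were chosen with earlier results of these data known. Alternatives covered probe set choice, a level filter, variance settings, normalization and array weights. They also covered a 2-fold threshold, normal NSC arrays in the fit and each line left out. Added after seeing the data were chromosome 3 left out of the count, without a new fit, and values centred per chromosome.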

Additional observations from a re-analysis of the deposited data

Results flagged for a closer look

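Of 80 sets of values (40 named genes in 2 groups), 4 held a line far from the others of its group, and chance alone gives about 1 in 20. In Nek6, p53 mutant line 3 was the highest at 8.97, with the next line at 8.75 and the lowest at 8.64. In Prmt6, WT line 119 was the lowest at 6.95, with the other WT lines between 7.08 and 7.11. In Rpf1, WT line 120 was the highest at 9.05, with the others between 8.73 and 8.76. In Nes, WT line 120 was the highest at 9.17, with the others between 8.11 and 8.24. Rpf1, Nes and Prmt6 lie on chromosome 3. Line 120, set apart in Rpf1 and Nes, had the smallest deviation of the WT lines there (-0.04). Line 119, set apart in Prmt6, had -0.15, while line 123 had the largest (-0.28). A link was not tested.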

How the results depend on the processing

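Of the differences of named genes under the alternatives, 817 kept their direction and their side of the threshold, 28 lost the call, 8 gained it and 12 changed sign. Those that changed sign were small differences: Gfap gave -0.007 with array weights. With 1 line left out, the ranges that crossed 0 were -0.0393 to 0.0845 for Gfap, -0.32 to 0.14 for Met, -0.39 to 0.15 for Egfr, -0.36 to 0.50 for Ccnd1, -0.2188 to 0.0313 for Sesn2, -8e-04 to 0.15 for Mdm2 and -0.0093 to 0.101 for Olig2. The number of called genes was 4, against 1 when the fit was limited to genes above the median level (0 lower, since the other 3 genes lie under that level) and 8 (7 lower) with the normal NSC arrays added for the spread. With 1 line left out it ran between 0 and 10, with 0 to 5 higher and 0 to 8 lower. It was 3 to 5 under the other alternatives. Prkar2b was called under 16 of 22 alternatives, Cpa6 under 15, Thbd under 14 and Sema3d under 12. The cause of the lost calls was not tested, and each fit without a line has fewer samples. No paired analysis was possible because the groups share no replicate number in the labels. Levels near or below the 25th percentile may be background, in which case differences there are lower bounds.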

Other observations

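Several lists not described above held few or no genes at a low p. Collagens had 0 of 19 members called by limma and 0 with an unadjusted p under 0.05, with a median difference of -0.16. Without p53 mutant line 116, 3 collagens were lower by unadjusted p, 2 without line 28, 123 or 331 and 1 without line 120. Their median was -0.05 without line 119, -0.07 without line 95 and -0.10 without line 59 or 331. DNA repair genes also had 0 of 26 by either count, with a median of 0.06. Without line 116, 4 of these were higher by unadjusted p and 2 without line 331, and the median ran between 0.01 without line 120 and 0.13 without line 331. RAS-MAPK output genes had a median of 0.23 over 18 members (0.06 without line 95, 0.05 without line 331 and 0.15 without line 3 or with array weights), with 14 higher by sign and 1 by unadjusted p, Etv5 (8.45 ± 0.50 in p53 mutant and 7.82 ± 0.53 in WT lines), a transcription factor induced by that pathway. Fos, an immediate early gene, averaged 6.48 ± 0.32 and 7.13 ± 0.19 (limma adjusted p = 0.383).

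Single genes outside these groups stood apart. Meis2, a homeobox gene of the developing forebrain, ran between 10.54 and 10.72 in p53 mutant lines, against 10.82 to 11.13 in WT lines (difference -0.34 ± 0.08 SE, limma adjusted p = 0.370). Snai1, a repressor of epithelial genes, averaged 7.80 ± 0.26 and 8.25 ± 0.10, with groups apart (adjusted p = 0.412). Fgf18, a growth factor of bone and cartilage, ran between 7.25 and 7.47 in p53 mutant lines, against 9.33, 7.67, 7.66 and 10.98 in WT lines 119, 120, 123 and 331, so that lines 119 and 331 were high, as they were for Thbs2 and Oasl2. Stmn2, a microtubule regulator of neurons, varied most within the groups among the neuron markers, between 6.30 and 11.38 in p53 mutant lines and between 6.23 and 10.59 in WT lines.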
